A study of Mus musculus with 30 samples.

Results

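The genes for the nuclear-encoded subunits of respiratory complexes II to V were followed across 30 single muscle fibres in which the mitochondrial calcium uniporter had been overexpressed, silenced or left alone. Members were the genes whose deposited name is Sdha, Sdhb, Sdhc, Sdhd or Cyc1, or starts with Uqcr, with Cox4 to Cox8 or with Atp5. This gave 49 genes on 72 of the 55681 probes of the array: 4 for complex II, 9 for complex III, 19 for complex IV and 17 for complex V. The name rule also takes in 3 genes that are not subunits, listed as Cox4nb (now Emc8, of a complex of the endoplasmic reticulum), Atp5s (now Dmac2l) and Atp5sl (now Dmac2), which leaves 46 subunit genes. Genes were tested if any probe was well above background in 3 or more fibres of some group, which held for 47 of the 49 members and for 23336 genes in all. The exceptions, Cox7b2 and Cox8c, never reached that level of signal in any fibre.

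The source was the extensor digitorum longus (EDL), a muscle of mainly fast fibres, in male CD1 mice that were 8 weeks old when adeno-associated virus (AAV) was injected. The 8 groups were fibres with a vector carrying MCU (3 at 7 days and 4 at 14 days after injection), wild type fibres without virus (4 at each day), fibres with a vector that silences MCU (3 and 4) and transfected controls (4 and 4). The titles name the control vector for a hairpin against luciferase while the other labels describe virus without an insert, and which of these is right could not be told. Injected fibres were picked for the green marker of the virus, and were kept for the array if quantitative PCR showed the intended change of MCU, per the labels, so the level of Mcu below is not independent of how fibres were chosen. Animals are not named in the labels, and some fibres may share an animal, so the p-values rest on variation from fibre to fibre only. The number of arrays limits the precision.

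Complex II (succinate dehydrogenase) oxidises succinate and passes electrons to ubiquinone. Complex III (ubiquinol-cytochrome c reductase) and complex IV (cytochrome c oxidase) carry them on to oxygen while pumping protons, and complex V (ATP synthase) lets the protons back to make ATP. Oxidative fibres hold more of these complexes than glycolytic ones, and striated muscle uses its own isoforms of several complex IV subunits, among them Cox6a2, Cox7a1 and Cox8b. MCU is the pore through which calcium enters the mitochondrial matrix, where it raises the activity of several dehydrogenases.

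Each level is the log2 of the processed intensity over the 75th percentile of its array, and a difference is tested with limma over all genes, with Benjamini-Hochberg adjustment. A gene was called at an adjusted p below 0.05. On this scale 39 of the 47 members lay in the tenth of genes with the highest mean level, and no spot of a member was saturated. That percentile had values of 82.5 to 136 over the arrays, with 49.4% to 59.5% of probes detected well above background. On each of the 4 slides treated fibres lay in columns 1 and 2 and controls columns 3 and 4, so column and group cannot be told apart. Each slide held fibres of 1 day only, so day and slide cannot be told apart either. The mean level of Mcu differed from that of the controls in the labelled direction in each pair of groups, but at 7 days the rise under the MCU vector did not pass the test (0.60 ± 0.41, adjusted p 0.999). At 7 days it was 3.62, 3.16 and 3.11 in MCU vector fibres and 2.50 to 2.94 in wild type fibres, and at 14 days 5.88 to 6.68 in MCU vector fibres and 2.16 to 2.81 in wild type fibres. In silenced fibres it was 1.30, -0.58 and 0.80 at 7 days, against 2.30 to 3.04 in transfected controls, and -1.68 to 0.76 at 14 days, against 2.35 to 2.81 in transfected controls.

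Myosin genes, which mark fibre types, set 3 silenced fibres apart. Myh1, the heavy chain of type IIX fibres, had a level of 7.59 in silenced replicate 3 at 7 days and of 7.94 and 7.53 in silenced replicates 1 and 3 at 14 days, while the highest level among the other 27 fibres was 6.17. Myh4, the heavy chain of type IIB fibres, was at 0.38 in silenced replicate 3 at 14 days and at 5.95 in silenced replicate 1, and lay between 7.21 and 7.98 in all other fibres. Myh2, the heavy chain of type IIA fibres, reached 6.50 in silenced replicate 3 at 14 days and was at or below -0.87 elsewhere. The slow heavy chain gene Myh7 stayed between -0.87 and -0.07 in the 30 fibres. All fibres had a high level of at least 1 fast heavy chain, as labelled. The silencing results are given with and without these 3 fibres. That choice was made after the myosin levels had been seen.

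Some of the genes named below are shown with the 250 bases before their start. The bases are as listed by RefSeq on GRCm38.p6 and read 5′ to 3′ on the strand of the gene. Cox7b (chrX:106015450-106015699, plus strand), Uqcrfs1 (chr13:30545317-30545566, minus strand) and Atp5o (chr16:91931631-91931880, minus strand) were called under silencing over both days and at 7 days, as were other members. Cox6a1 (chr5:115348959-115349208, minus strand) was called in neither, but had the largest difference between the responses to overexpression and silencing. Capitals mark a match to a motif searched on either strand: GCGCA followed at once by TGCGC, of nuclear respiratory factor 1, CCGGAA of the ETS family, AAGATGGC of Yy1 and AAGGTCA of the oestrogen-related receptors.
Cox7b: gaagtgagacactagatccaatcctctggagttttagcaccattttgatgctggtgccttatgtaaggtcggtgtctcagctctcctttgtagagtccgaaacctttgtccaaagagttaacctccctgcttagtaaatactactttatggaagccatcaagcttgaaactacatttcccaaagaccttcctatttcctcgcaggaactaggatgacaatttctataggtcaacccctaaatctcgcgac
Uqcrfs1: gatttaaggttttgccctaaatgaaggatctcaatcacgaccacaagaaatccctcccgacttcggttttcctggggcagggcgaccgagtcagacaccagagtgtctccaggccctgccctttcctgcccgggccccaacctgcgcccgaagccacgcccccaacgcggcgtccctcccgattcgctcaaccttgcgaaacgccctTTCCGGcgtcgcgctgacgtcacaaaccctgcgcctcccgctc
Atp5o: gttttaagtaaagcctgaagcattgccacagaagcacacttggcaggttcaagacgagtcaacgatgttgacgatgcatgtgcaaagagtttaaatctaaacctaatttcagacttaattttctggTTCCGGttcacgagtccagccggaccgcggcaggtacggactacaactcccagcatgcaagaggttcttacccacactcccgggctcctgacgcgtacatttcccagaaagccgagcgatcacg
Cox6a1: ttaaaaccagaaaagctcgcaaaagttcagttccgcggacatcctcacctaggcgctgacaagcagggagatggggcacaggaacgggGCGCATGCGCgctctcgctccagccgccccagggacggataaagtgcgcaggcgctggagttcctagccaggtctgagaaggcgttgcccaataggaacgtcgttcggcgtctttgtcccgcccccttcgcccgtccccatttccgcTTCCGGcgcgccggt
Of the 49 members, 37 had an upstream sequence in the RefSeq table, and the first listed was used where a gene had several. CCGGAA was present in 11 of the 37 (29.7%), against 12.2% of the 27025 genes with such a sequence. The motif of nuclear respiratory factor 1 was present in 3 of the 37 (8.11%: Atp5g2, Atp5k and Cox6a1), against 0.781% of all, AAGGTCA in 2 (5.41%) against 4.05%, and AAGATGGC in 0 against 1.59%. A match is a run of letters and not a bound site, and the window leaves out everything after the start.

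With MCU overexpressed, all 47 members had lower means than in wild type fibres over both days, by small amounts, and 0 were called. Wild type fibres had no virus, so the virus and the MCU it carried cannot be told apart in this comparison. The median log2 difference of the members was -0.20, against -0.03 over all genes tested and -0.01 in the tenth of genes with the highest levels. At an unadjusted p below 0.05, 10 of the 47 were lower and 0 higher, where 7.15% of all genes tested were lower. After adjustment, limma called 0.291% of all genes lower and 0.823% higher. By complex the medians were -0.28 for complex II, -0.19 for complex III, -0.20 for complex IV and -0.20 for complex V.

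Cox6b1, a small subunit of complex IV that faces the intermembrane space, had the smallest p of the complex IV genes. Its levels at 14 days were 5.34, 5.08, 5.63 and 5.69 in MCU vector fibres and 5.97, 5.78, 6.19 and 6.01 in wild type fibres, so that the groups did not overlap. At 7 days MCU vector fibres had 5.47, 5.55 and 5.79, within the range of the wild type fibres at 5.42 to 6.04. The difference over both days was -0.39 ± 0.12 (standard error), with an adjusted p of 0.125. Atp5sl, which is needed for assembling complex I rather than complex V, had -0.54 ± 0.19 (adjusted p 0.203), and Cox6a1, the isoform found in most tissues, had -0.52 ± 0.23 (adjusted p 0.309).

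In complex II the iron-sulfur subunit Sdhb and the membrane anchor Sdhd both had -0.31 (adjusted p 0.342 and 0.44), the flavoprotein Sdha had -0.13 and the anchor Sdhc -0.26. Complex III reached from -0.10 for the hinge subunit Uqcrh to -0.27 for the Rieske iron-sulfur subunit Uqcrfs1 (adjusted p 0.3). Of the catalytic core of complex V, the gamma subunit Atp5c1 had -0.33 ± 0.13 (adjusted p 0.273), the beta subunit Atp5b -0.20 and the alpha subunit Atp5a1 -0.10. None of these values passed the test, and the fibre medians of the groups overlapped on each day.

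No member's response to the MCU vector was shown to differ between days. The median was -0.14 at 7 days, when 43 of 47 members were below 0, and -0.26 at 14 days, when all 47 were below 0. The value at 7 days rests on few fibres: it was -0.05 without MCU vector replicate 1 and -0.25 without replicate 3. At 14 days 7 members did not overlap between the groups, all lower (Sdhd, Cox4i1, Cox4i2, Cox6b1, Cox7c, Atp5g1 and Atp5sl), where 4.32% of all genes did so, and at 7 days 0 did so, where 4.15% of all genes did. At an unadjusted p below 0.05, 0 members were lower at 7 days and 7 at 14 days, against 2.82% and 6.01% of all genes, and 0 were called at either day (background 0.0343% lower and 0.54% higher at 7 days, and 0.0943% lower and 0.326% higher at 14 days). The change of the effect between days was called for 0 of 47 members, where 0.0171% of all genes were called higher and 0.18% lower. At an unadjusted p below 0.05 it was again 0 of 47, where 1.58% of all genes were higher and 1.89% lower. The median was -0.09, and its sign turned, to 0.03, without MCU vector replicate 3 of 7 days.

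**Figure D1:**
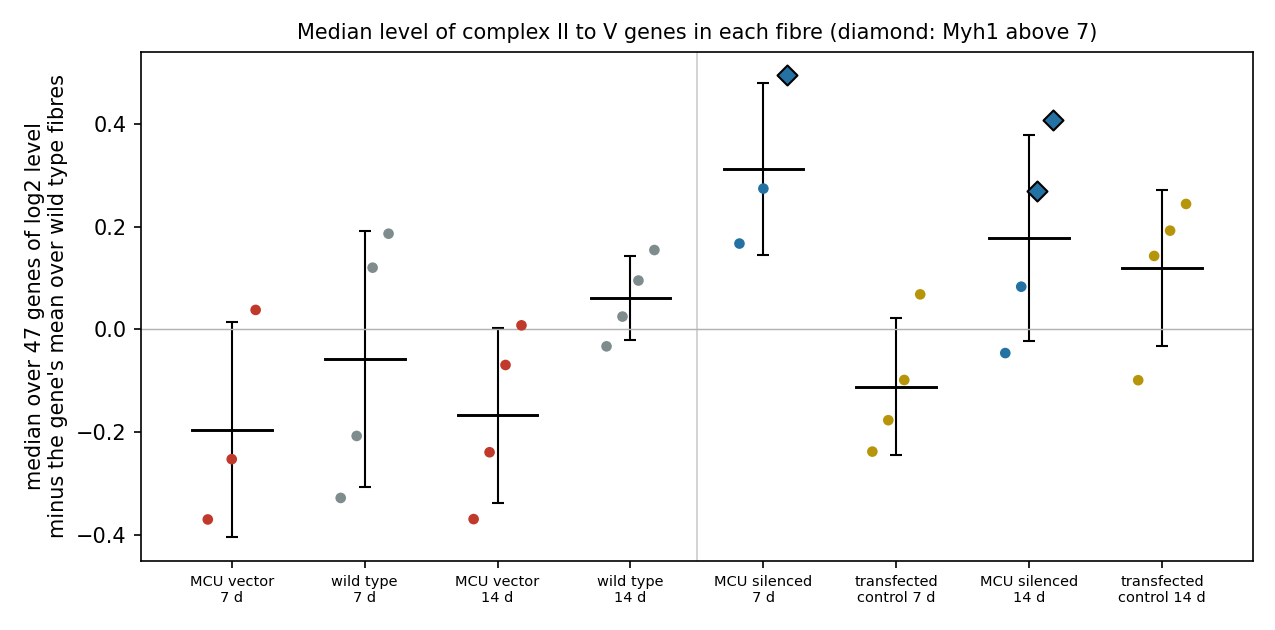
Median over the 47 tested genes in each fibre, on the log2 scale relative to each gene's mean over the wild type fibres. Points are fibres, diamonds the 3 silenced fibres with Myh1 above 7, and bars the mean ± SD of a group; the 3 silenced fibres of 7 days lie at 0.17 to 0.50 and the transfected controls of 7 days at -0.24 to 0.07.

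With MCU silenced, 46 of the 47 members had higher means than in transfected controls over both days, and 13 were called higher and 0 lower. Among all genes tested 8.56% were called higher and 5.9% lower. The median log2 difference was 0.27 for the members, against 0.05 over all genes and 0.02 in the tenth with the highest levels. The called members were 2 of 9 in complex III, 5 of 17 in complex IV, 6 of 17 in complex V and 0 of 4 in complex II. Without the 3 silenced fibres high in Myh1, 0 members were called over both days (background 4.94% higher), 6 were higher at an unadjusted p below 0.05, the median was 0.13 and 38 of 47 were above 0. That fit keeps silenced replicates 1 and 2 of 7 days and 2 and 4 of 14 days, so it has less power. Why the calls were lost was not tested. With Myh4 and Myh1 as covariates over all fibres, 0 were called as well (background 5.9% higher), with a median of 0.16. Scaling arrays by their median in place of the 75th percentile moved the median difference of all genes from 0.05 to -0.08, with 39 of 47 members above 0 and 0 called (background 3.39% higher).

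At 7 days the difference was larger and held in part without the fibre high in Myh1. All 47 members were above 0, with a median of 0.47 against 0.09 over all genes and 0.15 in the tenth with the highest levels, and 18 were called higher (background 8.77%) and 0 lower (background 5.03%). In 30 of the 47, all silenced fibres lay above all transfected controls, as in 14% of all genes tested. Without the 3 fibres, of which replicate 3 belongs to 7 days, Cox7b, Cox6c, Cox6a2, Uqcrfs1, Atp5j and Atp5o were still called (6 genes, background 5.37%), with a median of 0.38 and 45 of 47 above 0. With Myh4 and Myh1 as covariates 17 were called higher (background 9.16%), with a median of 0.42. With arrays scaled by their median, 5 were called higher (background 4.14%) and 45 were above 0. With only the groups compared in the fit, which then does not share the spread of the other groups, 1 of 47 was called higher (background 1.99%).

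**Figure D2:**
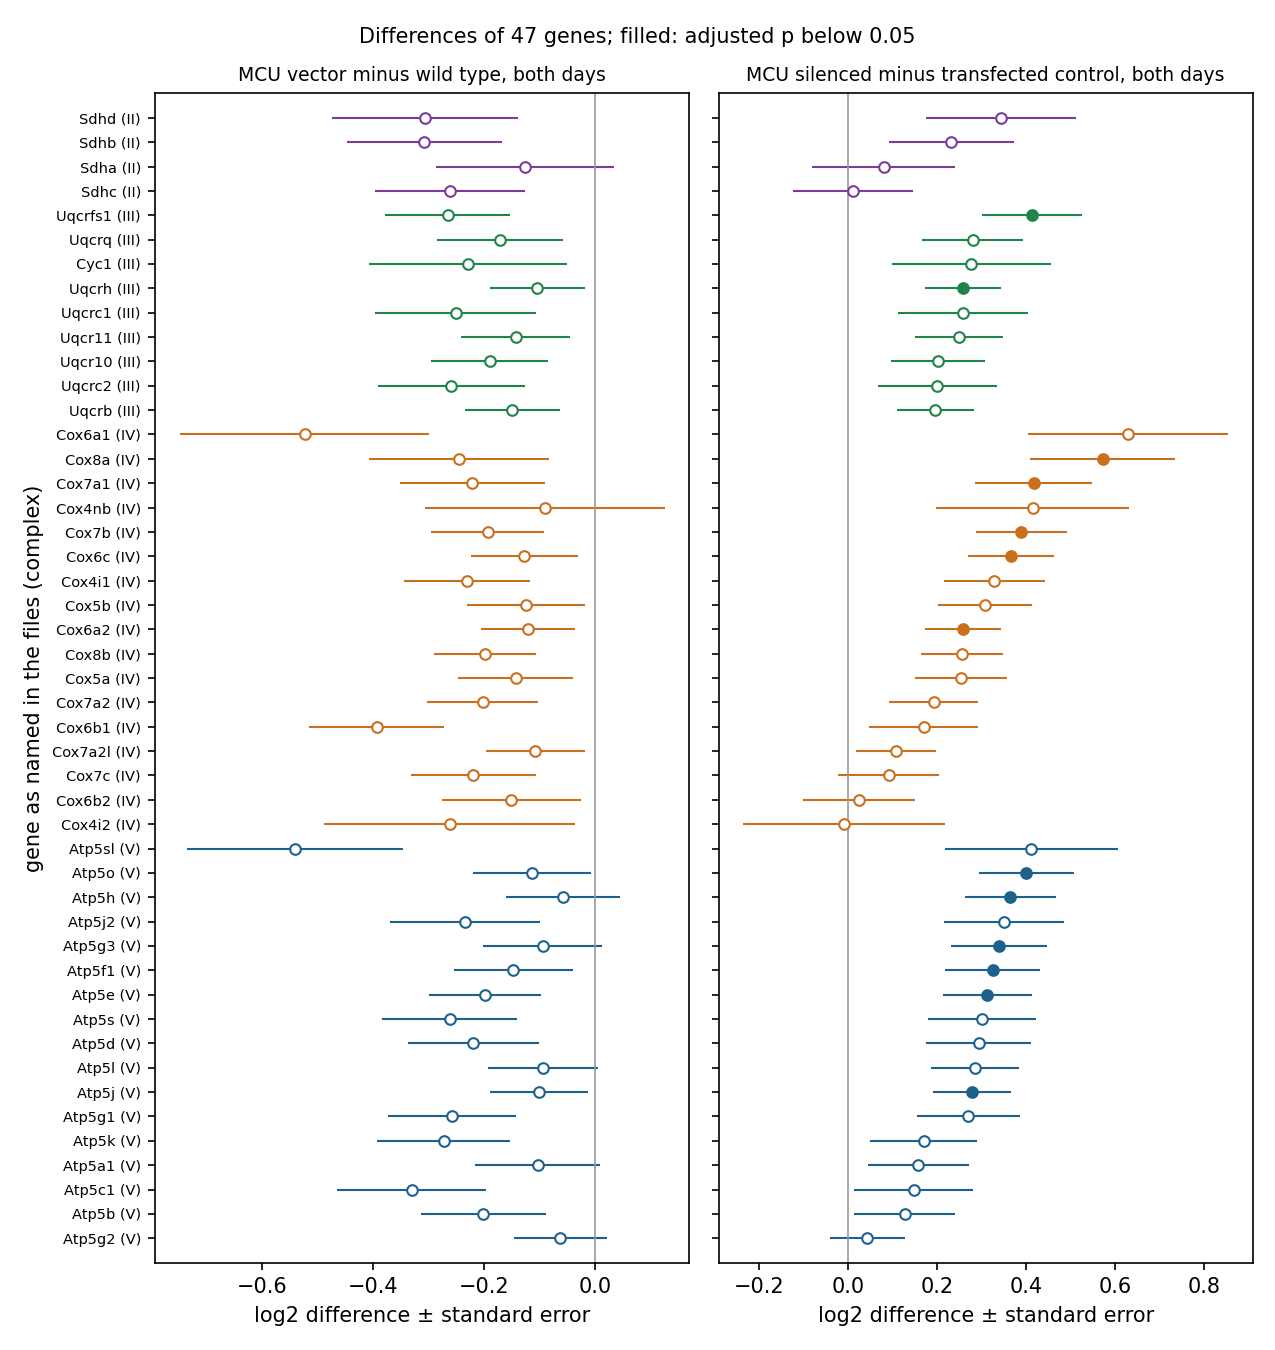
Log2 difference of each of the 47 genes with its standard error, by complex, for MCU vector minus wild type (left) and MCU silenced minus transfected control (right), over both days. Filled points passed the adjusted p of 0.05: 0 on the left and 13 on the right, where 46 of 47 points lie above 0.

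Complex IV held the gene with the smallest p. Cox7b, a small subunit encoded on the X chromosome, had levels of 7.08, 7.17 and 7.24 in the silenced fibres of 7 days and of 6.21, 6.33, 6.20 and 6.56 in the transfected controls, so every silenced fibre was the higher. The difference was 0.84 ± 0.15 (adjusted p 0.000746), or 0.80 ± 0.17 without the fibre high in Myh1 (adjusted p 0.00637). At 14 days the levels overlapped, with 6.96, 6.63, 6.93 and 6.74 in silenced fibres and 6.64, 6.97, 7.04 and 6.85 in transfected controls.

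Cox6c, another small subunit, had 6.63, 6.57 and 6.72 in silenced fibres of 7 days, against 5.92, 5.97, 5.76 and 6.14 in transfected controls. All silenced fibres were above all controls, and the difference was 0.69 ± 0.14 (adjusted p 0.00247). Cox6a2, the heart and skeletal muscle isoform of subunit 6a, had 8.14, 8.38 and 8.32 in silenced fibres and 7.91, 7.96, 7.42 and 7.82 in transfected controls, a difference of 0.50 ± 0.13 (adjusted p 0.00952). The muscle isoforms Cox7a1 and Cox8b rose by 0.66 ± 0.19 and 0.49 ± 0.13 (adjusted p 0.0243 and 0.018). Of the isoforms found in most tissues, Cox7a2 rose by 0.47 ± 0.15 (adjusted p 0.0347), while Cox6a1 had 0.80 ± 0.33 (adjusted p 0.106) and Cox8a 0.55 ± 0.24 (adjusted p 0.123). Muscle and general isoforms thus both had higher means, and a difference between the 2 kinds was not tested.

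Cox6a1 varied widely among silenced fibres. It stood at 2.75, 1.78 and 3.40 at 7 days and at 2.94, 2.50, 3.61 and 2.10 at 14 days, against 1.47 to 2.16 and 2.02 to 2.57 in transfected controls of the 2 days. The highest value of each silenced group belonged to a fibre high in Myh1. Of the larger nuclear-encoded subunits of complex IV, Cox4i1 rose by 0.54 ± 0.17 at 7 days (adjusted p 0.0342), and Cox5a and Cox5b had 0.44 and 0.39 (adjusted p 0.0531 and 0.0987). Cox7a2l, which helps to join complexes III and IV, had 0.23 and Cox6b2 0.04, both far from the threshold.

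In complex III, Uqcrfs1 rose most. Its levels at 7 days were 5.62, 5.31 and 5.82 in silenced fibres and 4.77, 4.76, 4.79 and 5.18 in transfected controls, with no overlap, and the difference was 0.71 ± 0.17 (adjusted p 0.00606). Uqcrh, Uqcr11 and Uqcrb, small subunits around the core, rose by 0.43, 0.44 and 0.41 (adjusted p 0.0248, 0.0446 and 0.0311). The core subunits Uqcrc1 and Uqcrc2 had 0.44 ± 0.21 and 0.32 ± 0.20, and the cytochrome subunit Cyc1 had 0.51 ± 0.26, none of which passed (adjusted p 0.177, 0.283 and 0.193).

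In complex V, 7 of 17 genes were called at 7 days (background 8.77% higher), and all 17 were above 0. Atp5o, which ties the head to the outer stalk, had levels of 5.75, 5.46 and 5.86 in silenced fibres of 7 days and of 4.96, 4.97, 5.06 and 5.16 in transfected controls. The groups did not overlap, and the difference was 0.65 ± 0.16 (adjusted p 0.00738). Atp5j, also of the outer stalk, had 5.05, 4.99 and 5.16 in silenced fibres and 4.50, 4.53, 4.27 and 4.64 in transfected controls, a difference of 0.58 ± 0.13 (adjusted p 0.00451). Also called were the outer stalk subunits Atp5h (0.49) and Atp5f1 (0.48), the proton-carrying c subunit gene Atp5g3 (0.57), the central stalk subunit Atp5e (0.54) and the membrane subunit Atp5l (0.50). Its paralogues Atp5g1 and Atp5g2, which encode the same mature c subunit, had 0.49 and 0.22 (adjusted p 0.0552 and 0.249). The alpha subunit Atp5a1 had 0.29 ± 0.17, the beta subunit Atp5b 0.27 ± 0.17 and the gamma subunit Atp5c1 0.38 ± 0.20, none of which passed (adjusted p 0.252, 0.279 and 0.199). The central stalk subunit Atp5d and the membrane subunits Atp5j2 and Atp5k also missed the threshold, with 0.40, 0.53 and 0.40.

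Complex II had 0 of 4 genes called at 7 days (background 8.77% higher and 5.03% lower). Sdhd had levels of 3.42, 3.02 and 3.81 in silenced fibres and of 2.69, 2.68, 2.62 and 2.94 in transfected controls, and Sdhb had 6.26, 6.14 and 6.60 in silenced fibres and 5.76, 5.90, 5.60 and 6.12 in transfected controls. Neither overlapped, with differences of 0.68 ± 0.25 and 0.48 ± 0.21 (adjusted p 0.0659 and 0.115), while Sdhc and Sdha had 0.30 and 0.18.

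**Figure D3:**
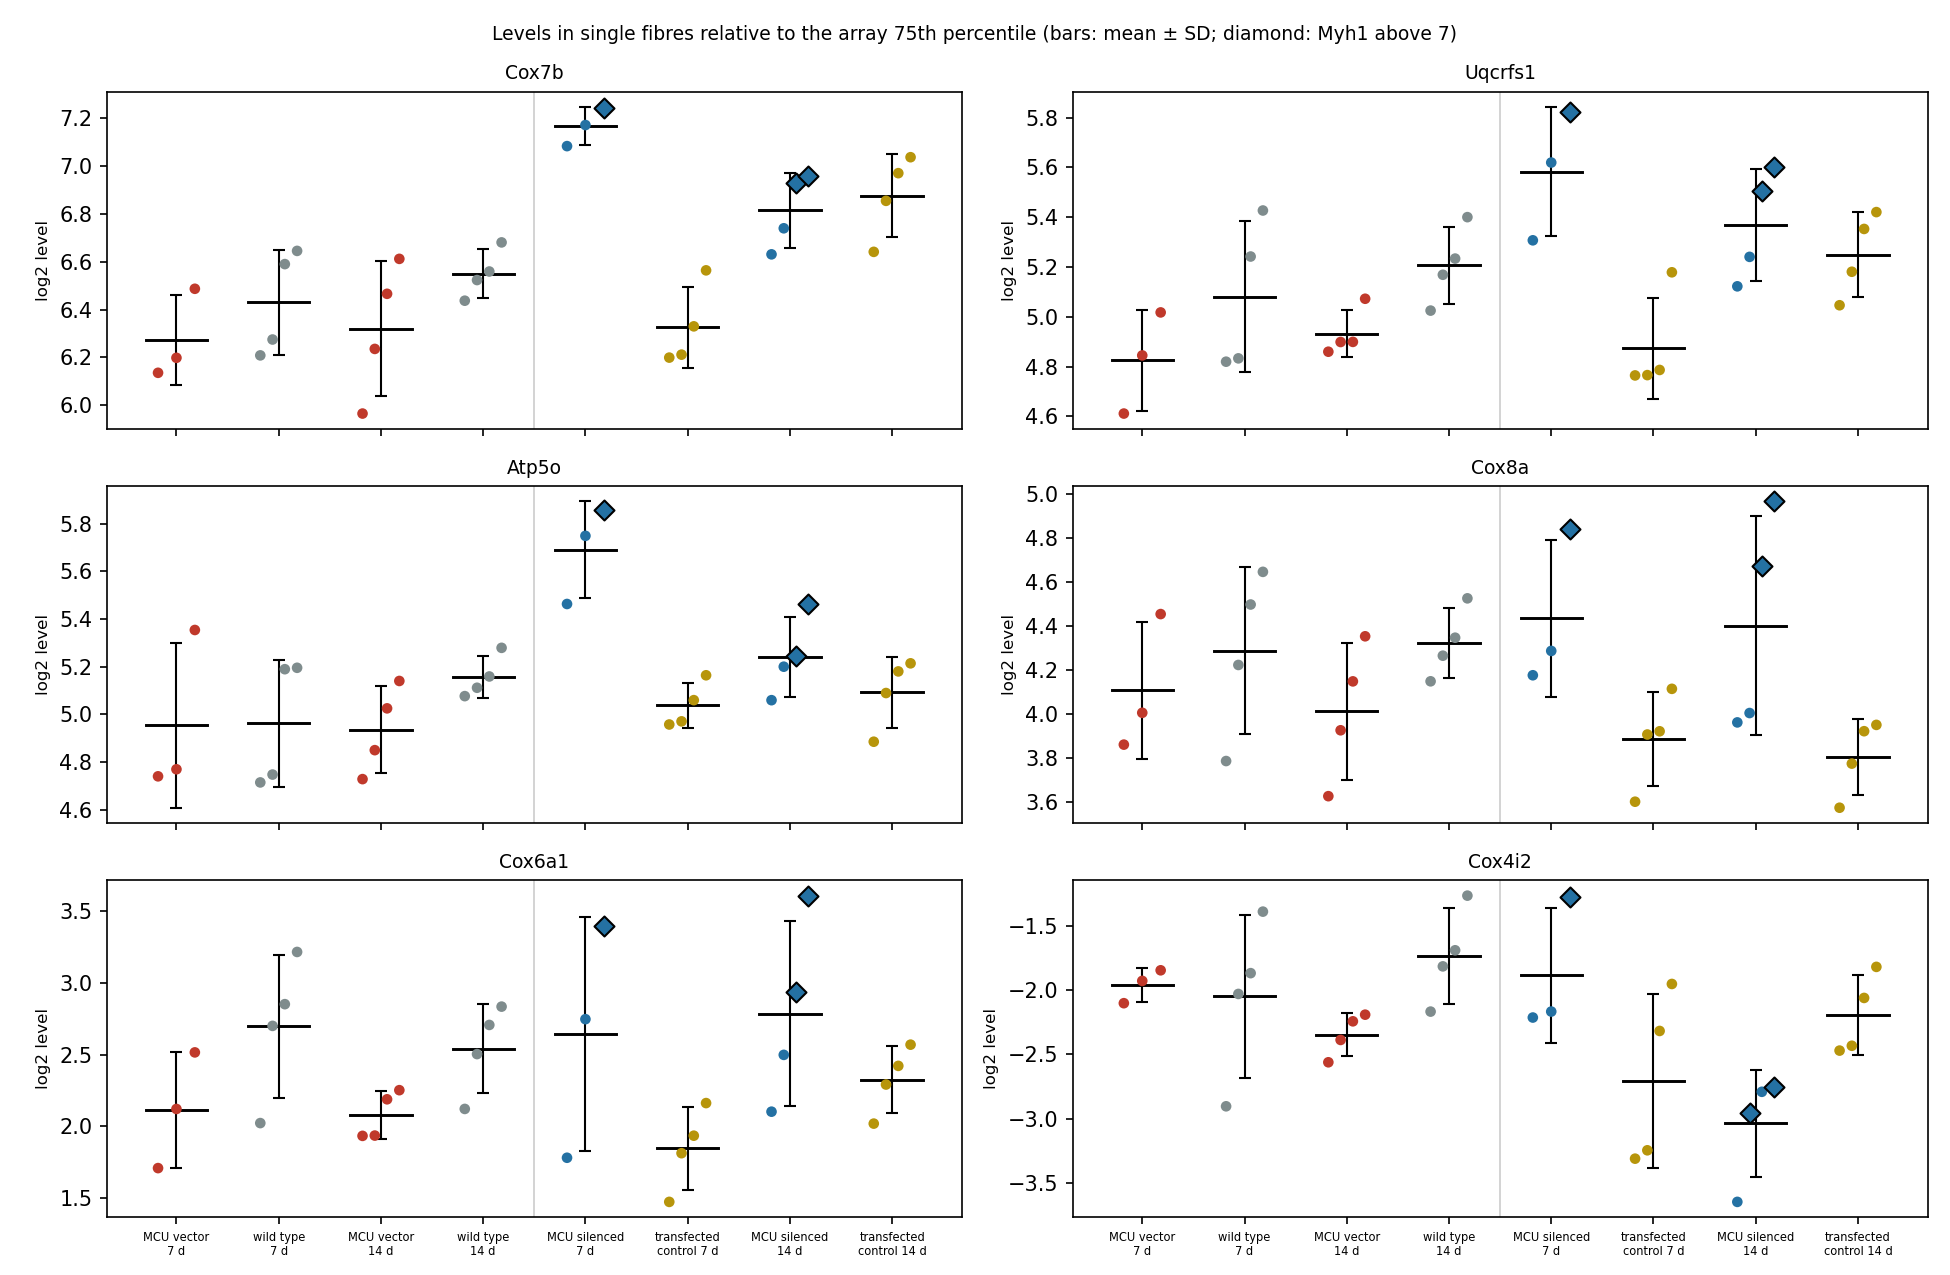
Log2 levels of 6 complex III to V genes in the 30 fibres, over the 75th percentile of the array, by group, with mean ± SD and with diamonds for the 3 fibres high in Myh1. Cox7b, Uqcrfs1 and Atp5o of silenced fibres lie above all transfected controls at 7 days and overlap them at 14 days, and Cox8a does not overlap at either day.

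At 14 days no member was called. Their median was 0.05, against -0.0015 over all genes and -0.08 in the tenth with the highest levels, 32 of 47 were above 0, and 0 were called in either direction (background 1.64% higher and 1.88% lower), although the difference of Mcu was -3.06 ± 0.38. At an unadjusted p below 0.05, 2 were higher and 1 lower, against 9.69% and 8.78% of all genes. Without the fibres high in Myh1 the median was -0.12 and 38 of 47 were below 0, with 0 called. With arrays scaled by their median, the median of the members was -0.07 and 13 of 47 were above 0. Cox8a, the general isoform of subunit 8, was the only member whose silenced fibres all lay above the controls at 14 days, at 4.67, 3.96, 4.96 and 4.00 against 3.57, 3.77, 3.92 and 3.95 in transfected controls. Cox4i2 was the only one whose silenced fibres all lay below. The shares of all genes that did so were 4.47% above and 4.59% below.

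**Figure D4:**
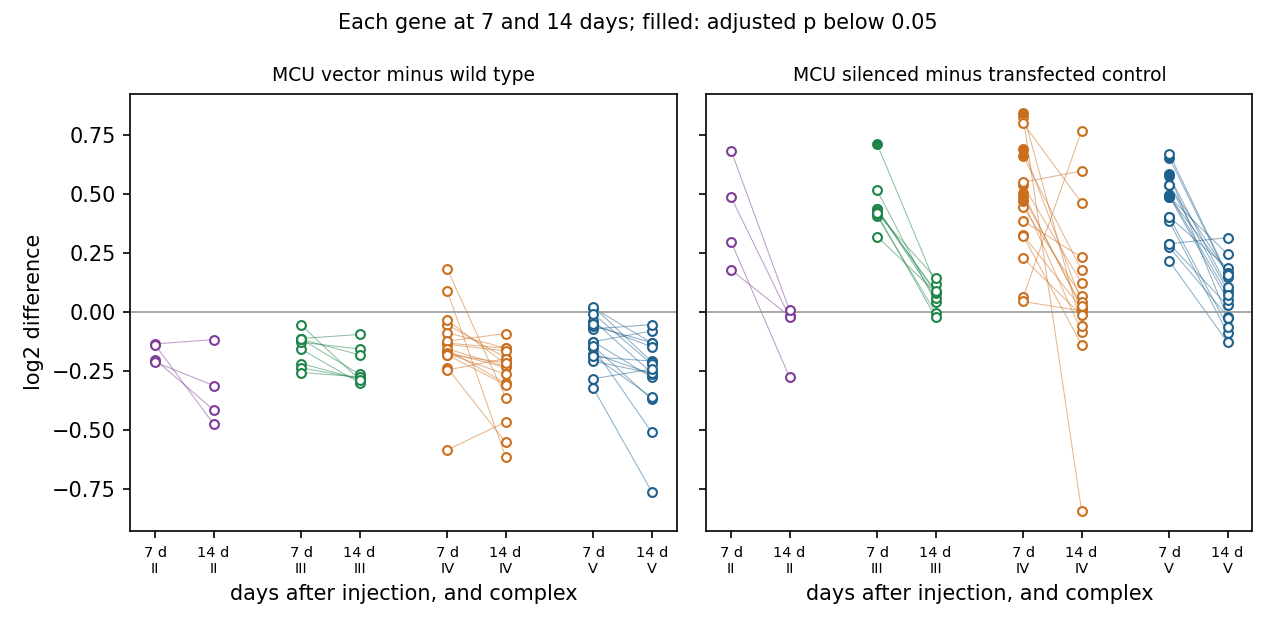
Log2 difference of each gene at 7 and 14 days, joined by a line, by complex, for MCU vector minus wild type (left) and MCU silenced minus transfected control (right). Filled points passed the adjusted p of 0.05; all 18 belong to silencing at 7 days, and the median of the silencing differences is 0.47 at 7 days and 0.05 at 14 days.

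The change of the silencing effect between days was itself tested. Its median (14 days minus 7 days) was -0.41 for the members, against -0.08 over all genes and -0.24 in the tenth with the highest levels, and 44 of 47 members were below 0. Cox7b (-0.90 ± 0.20, adjusted p 0.0114) and Cox4i2 (-1.67 ± 0.45, adjusted p 0.0365) were called lower, 2 of 47 where 2.78% of all genes were lower and 1.36% higher. Without the fibres high in Myh1, Cox7b was still called at -0.99 ± 0.24 (adjusted p 0.033) and Cox4i2 was not. Levels in the transfected controls differed between days as well as those in the silenced fibres, but the days lay on different slides. Time and slide thus cannot be told apart in these levels. Cox7b averaged 6.81 ± 0.16 (SD) at 14 days and 7.17 ± 0.08 at 7 days in silenced fibres, and 6.88 ± 0.17 at 14 days and 6.33 ± 0.17 at 7 days in transfected controls.

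Cox4i2, the isoform of subunit 4 best known from lung, lay near the detection limit. It was well above background on 20 of 30 arrays and on 0 of 4 silenced fibres of 14 days, against 3 of 4 transfected controls. Dim spots below the floor of their array, its lowest level well above background, were raised to that floor. Silenced fibres of 14 days were then 1.48-fold lower than the measured mean of transfected controls. Dim spots above the floor kept their measured value, also among the controls. The fold is thus not a strict bound, and it was not tested. The measured means were -3.04 in silenced fibres and -2.20 in transfected controls (limma adjusted p 0.128). With the floor the change of the effect between days was -1.27.

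No slide held both transfected controls and wild type fibres, so slide and vector cannot be told apart in their comparison. The median difference of the members was 0.01, with 25 of 47 above 0. Only Cox8a was called, lower in transfected controls by 0.46 (adjusted p 0.0296), 1 of 47 where 18.5% of all genes were lower and 9.62% higher. With arrays scaled by their median, the difference of Cox8a was -0.29 (adjusted p 0.182 by limma) and it was not called. A further probe of Cox8a had -0.34 (adjusted p over probes 0.0742). The levels of Cox8a averaged 4.43 ± 0.36 (SD, n = 3) at 7 days and 4.40 ± 0.50 (n = 4) at 14 days in silenced fibres, 3.88 ± 0.21 and 3.80 ± 0.17 in transfected controls and 4.29 ± 0.38 and 4.32 ± 0.16 in wild type fibres (n = 4 each). The rise of Cox8a under silencing over both days (0.57 ± 0.16, adjusted p 0.0204) is thus taken against controls that lie below wild type fibres on this gene, and the comparisons share those controls.

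The responses to the 2 vectors were set against each other over both days. The effect of the MCU vector minus the effect of silencing, over both days, was below 0 for all 47 members, with a median of -0.45 against -0.08 over all genes, and 19 were called lower and 0 higher (background 6.15% lower and 5.19% higher). The called genes were 1 of 9 in complex III, 9 of 17 in complex IV and 9 of 17 named for complex V. The last 9 include Atp5sl and Atp5s, which are not subunits. Of the 44 subunits tested, 17 were called lower. Cox6a1 had -1.15 ± 0.32 (adjusted p 0.0218), Atp5sl -0.95 ± 0.27 (adjusted p 0.027), Cox8a -0.82 ± 0.23 (adjusted p 0.0238), Uqcrfs1 -0.68 ± 0.16 (adjusted p 0.0083) and Cox7b -0.58 ± 0.14 (adjusted p 0.0117). At 7 and 14 days Cox6a1 averaged 1.84 and 2.32 in transfected controls, 2.70 and 2.54 in wild type fibres and 2.64 and 2.79 in silenced fibres. Its silencing effect, like that of Cox8a, is thus taken against controls with lower means than wild type fibres, though only Cox8a was called there. Without the silenced fibres high in Myh1, 0 were called (background 3.7% lower), with a median of -0.32 and 46 of 47 below 0. The count also fell to 2 when MCU vector replicate 1 of 7 days was left out (background not given). It fell to 1 with arrays scaled by their median (background 2.22% lower). This difference is a mean over both days, and the effect of the MCU vector alone had 0 members called. The MCU vector effect was taken against fibres without virus, and the silencing effect against fibres with virus. Virus and MCU thus cannot be told apart in the difference.

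**Figure D5:**
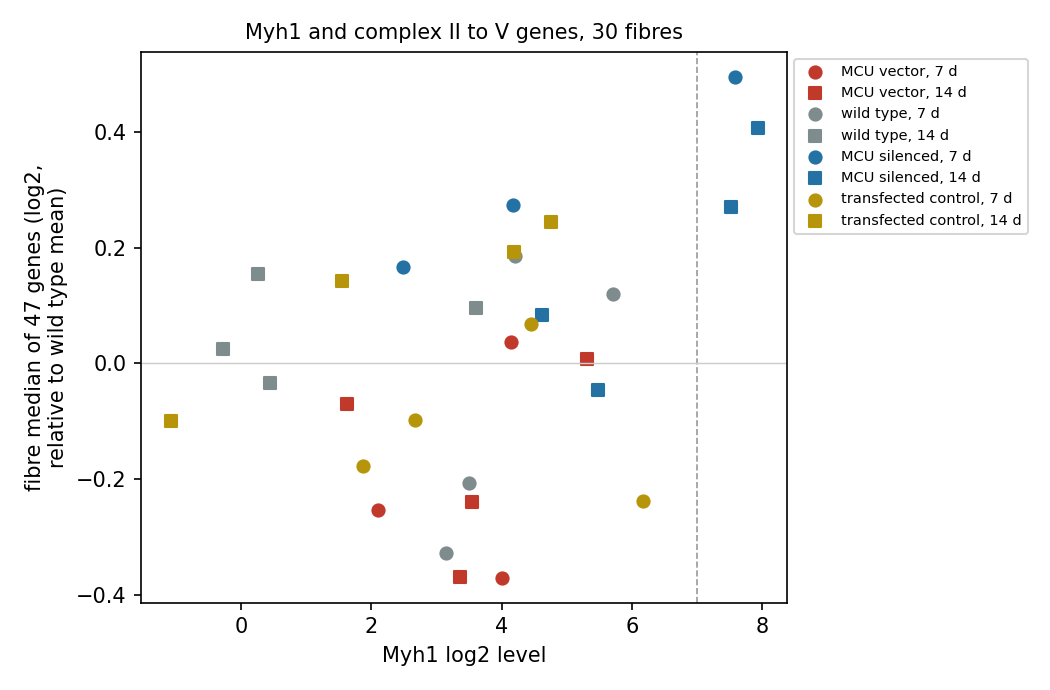
Fibre median of the 47 genes against the log2 level of Myh1 in the 30 fibres, coloured by group with circles for 7 days and squares for 14 days. The dashed line is the Myh1 level of 7; the 3 fibres beyond it, all silenced, have medians of 0.27 to 0.50, while the other 4 silenced fibres have -0.05 to 0.27.

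Other genes of oxidative metabolism were examined by list. The 48 genes whose name starts with Nduf (complex I subunits and some of its assembly factors) had a median of 0.26 under silencing over both days. Of these, 14 were called higher and 0 lower (background 8.56% and 5.9%). At 7 days the median was 0.45, with 17 called higher (background 8.77%). Without the fibres high in Myh1 these counts were 1 (background 4.94%) and 9 (background 5.37%). Under the MCU vector their median was -0.20, with 0 called (background 0.291% lower and 0.823% higher). Of 33 measured assembly factors of complexes II to V, 3 were called higher under silencing over both days: Sco2, which brings copper to complex IV (0.60), Sdhaf4, of complex II (0.38), and Taco1, a translational activator for complex IV (0.36). That is 9.09% of the list, close to the 8.56% of all genes called higher, and without the fibres high in Myh1 it was 0 of 33. Of 7 enzymes of the citric acid cycle, 0 were called over both days and 1, Suclg1, rose at 7 days (0.53, background 8.77%). Without the fibres high in Myh1 it was not called. Cycs, the cytochrome c that links complexes III and IV, had 0.04 over both days and was not called.

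Among 13 regulators of mitochondrial genes, 1 rose and 1 fell under silencing over both days (background 8.56% and 5.9%). That is 7.69% of the list in each direction, close to the shares of all genes. Ppargc1a, the coactivator that drives mitochondrial biogenesis, fell by 0.94 ± 0.24 (adjusted p 0.0112), and by 1.32 ± 0.26 without the fibres high in Myh1 (adjusted p 0.00326). Tfb1m, which modifies the ribosomal RNA of mitochondria, rose by 1.01 ± 0.21 (adjusted p 0.00268), and by 0.94 ± 0.25 without those fibres (adjusted p 0.0225). Nrf1, Gabpa and Yy1, whose proteins bind the first 3 kinds of motif searched, had 0.13, 0.06 and -0.22 and did not pass (adjusted p 0.438, 0.854 and 0.341). Ppargc1a had -0.51 ± 0.24 under the MCU vector (adjusted p 0.357). By day, Polrmt and Tfb1m were called higher and Ppargc1a lower under silencing at 7 days (background 8.77% and 5.03%). At 14 days only Tfb1m was called, higher (background 1.64%). Without the fibres high in Myh1, Ppargc1a was still called at 7 days (adjusted p 0.00807, background 3.76% lower) but not at 14 days (0.163). Tfb1m was then called at neither (0.0766 and 0.231).

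Some markers of other cell types and fibre types also moved at 7 days, when 8.77% of all genes were called higher under silencing and 5.03% lower. No tested marker of IIX fibres, fibroblasts, endothelium, mural cells, satellite cells, Schwann cells or erythroid cells was called. Of 6 macrophage and myeloid markers Itgam was called higher and Cd68 and Adgre1 lower in silenced fibres, and their summed linear level was 294 to 337 in silenced fibres and 235 to 279 in transfected controls, with 2 markers in silenced fibres and 1 in transfected controls undetected throughout. Of 3 adipocyte markers Adipoq was called higher, with sums of 0.524 to 0.707 in silenced fibres and 0.312 to 0.474 in transfected controls. Of 6 markers of slow fibres Myl2 was called lower, with sums of 9.56 to 10.4 in silenced fibres and 6.05 to 47.4 in transfected controls. Cd4, 1 of 3 measured lymphocyte markers, and Tnnt3, 1 of 5 markers of IIB fibres, were called higher. In wild type fibres of 7 days the sums were 290 to 348 for myeloid, 0.47 to 0.631 for adipocyte and 5.79 to 6.98 for slow fibre markers. Adipoq and Cd4 were also called lower in transfected controls than in wild type fibres over both days (background 18.5% lower), and the comparisons share those controls. The part of these markers in the differences of complexes II to V was not tested. The 75th percentile of signal was also low on silenced arrays of 7 days, at 103, 82.5 and 86.2.

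Where a member had several probes, these had the same sign under silencing over both days and at 7 days but did not always share the call. Of 16 such genes, 0 had probes of opposite sign over both days or at 7 days, and the range between probes of a gene had a median of 0.06 over both days and of 0.13 at 7 days. In 3 of the 16 some probes passed the test and others did not over both days (Uqcrb, Atp5l and Atp5k), and likewise in 3 at 7 days (Uqcr10, Atp5l and Atp5k). Uqcrb, not called over both days on the probe used (0.20, adjusted p over probes 0.136), had 0.36 and 0.39 on the others (adjusted p 0.00333 and 0.00936). At 14 days 7 of the 16 had probes of opposite sign.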

How the data were processed

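Each of 30 single fibres was hybridised to an array of its own, in 1 colour. Per the file headers, the deposited processed intensity came from Agilent Feature Extraction 10.7.3.1, which subtracts background and detrends each array but does not scale arrays to each other. Per the labels' protocols, amplified RNA was labelled with random primers, which loses the strand. The deposited series matrix holds linear intensity whose steps are not given in the sources used here (column medians 20.9 to 21.0, genes not centred), and it served as an alternative.

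Spots of controls or with outlier flags were dropped, and log2 values were averaged per probe. Of the probes that met the detection rule, the brightest stood for its gene. Deposited names are printed, after matching to RefSeq. limma 3.58.1 (R 4.3.3) fitted 8 group means to all arrays with 22 residual degrees of freedom. Tests were 2-sided, with Benjamini-Hochberg adjustment across the 23336 genes. Effects over both days are means of the 2 within-slide effects. The fit was also run on simulated data with independent noise for each gene and array. That run has no shifts shared by the genes of a fibre, so it cannot show whether the calls here hold. The figures were drawn with matplotlib 3.10.9.

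The members and all lists were chosen with earlier results of these data known. Named genes are those called, the core subunits, the tissue isoforms and the smallest p-values of each complex. Alternatives covered background correction, scaling, filters, probe choice, samples fitted, covariates, array weights and leaving out fibres.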

Additional observations from a re-analysis of the deposited data

Results flagged for a closer look

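The effect of silencing differed between days for Cox7b and Cox4i2 by the test of the difference itself. For Cox7b the effect at 14 days minus that at 7 days was -0.90 ± 0.20 (SE, limma adjusted p 0.0114), and for Cox4i2 it was -1.67 ± 0.45 (adjusted p 0.0365). Cox4i2 was not well above background on any of the 4 silenced arrays of 14 days, so its value is uncertain in size.

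Single fibres stood far from the rest of their group of 4 in 2 cases among the 132 such groups examined, where chance marks about 1 in 20. Uqcrfs1 was at 5.18 in transfected control replicate 4 at 7 days, while the other 3 lay at 4.76 to 4.79. Myh2 was at -2.60 in MCU vector replicate 4 at 14 days, while the other 3 lay at -5.03 to -4.87. It was not well above background on any of these 4 arrays, so its values there are uncertain in size.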

How the results depend on the processing

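Of 1721 values for called genes under other settings, 1151 kept their call, 570 lost it and 0 changed sign. The cause of the shifts was not tested. Percentages after a count are the share of all genes called the same way in that fit. Under silencing over both days (13 called higher, 8.56%), the count was 0 with median scaling (3.39%), 25 with the percentile over probes detected on all arrays (13.6%), 6 without the filter (4.8%), 3 with only the groups compared (3.65%), 6 with array weights (5.55%), 0 with both myosins as covariates (5.9%), 0 without the fibres high in Myh1 (4.94%) and 0 without both dimmest silenced arrays of 7 days (2.67%). The last leaves 1 silenced fibre at 7 days, assumed to vary like the other groups, so a loss of calls there says little. At 7 days (18, 8.77%) it was 5 with median scaling (4.14%), 5 with quantile normalization (7.23%), 6 from the series matrix (7.19%), 1 with only the groups compared (1.99%), 7 with weights (5.06%), 0 without the dimmest arrays (1.08%) and 6 without the fibres high in Myh1 (5.37%), and the median was 0.27 with quantile normalization and from the series matrix. At 14 days the myosin covariates gave a median of -0.14 and 1 gene called lower (0.9%).

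For the MCU vector over both days (0 called lower, 0.291%), the count was 1 with normexp (0.874%), 2 with weights (2.52%) and 3 with the myosin covariates (0.887%), which also gave 2 at 14 days (0.587%). For transfected controls against wild type (1 lower, 18.5%), it was 3 with normexp (14%), quantile normalization (16.4%) or the series matrix (16.5%), 2 with only the groups compared (18.3%), 4 with the percentile over detected probes (23%), with weights (20.2%) or with the myosin covariates (19.4%), and 0 with median scaling (10.1%) or the share of detected probes as a covariate (10.2%). Called higher there were 6 with median scaling (20.5%) and 1 with each probe tested on its own (9.36%). For the change of the silencing effect between days (2 lower, 2.78%), it was 1 with quantile normalization (2.49%), the series matrix (2.42%), no filter (1.42%), only the groups compared (0.986%), weights (1.61%), the share covariate (2.59%) or without the fibres high in Myh1 (1.47%), and the median was -0.15 with quantile normalization and -0.16 from the series matrix. For the difference between the vectors' effects (19 lower, 6.15%), it was 1 with median scaling (2.22%), 34 with the percentile over detected probes (11.4%), 11 without the filter (2.94%), 4 with the myosin covariates (5.13%) and 0 without the fibres high in Myh1 (3.7%).

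With the replicate block, the counts were 17 for silencing over both days (8.22%), 19 at 7 days (8.38%), 18 for the difference between effects (6.14%) and 4 for transfected controls against wild type (18.4%). Same-numbered fibres deviated together in 4 of 14 pairs (correlation above 0.1, range -0.175 to 0.186), too few to treat the numbers as pairs.

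Leaving out 1 fibre at a time gave 3 (without silenced replicate 3 of 7 days) to 19 for silencing over both days, 6 (without the same fibre) to 22 at 7 days, 0 to 1 for the MCU vector, 0 to 4 for transfected controls, 1 to 4 for the change between days and 2 (without MCU vector replicate 1 of 7 days) to 28 for the difference between effects. Over both days the count under silencing was also 8, 6 and 6 without transfected control replicates 1 and 3 of 7 days and 1 of 14 days, and 6 and 7 without silenced replicates 1 and 3 of 14 days. At 7 days it was 10 without transfected control replicate 1 or 3 or silenced replicate 1. For the difference between effects it was 6 without silenced replicate 3 of 7 days, and 11 or 12 without MCU vector replicate 2 of 7 days or 1 or 2 of 14 days, silenced replicate 1 of 14 days, transfected control replicate 1 of 14 days, or wild type replicates 1 or 4 of 7 days or 3 of 14 days. The share of all genes called is not given for these fits, so a loss of member calls cannot be told from a general loss. The median under silencing at 14 days was -0.04 without silenced replicate 1 and 0.14 without silenced replicate 4. Among the called genes of all kinds, the share higher under silencing over both days was 59.2%, but 25.1% with median scaling and 74.6% with the percentile over detected probes.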
